A study of Mus musculus with 8 samples.

Results

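The regions described here are the CTCF binding peaks that were listed in lens fiber cells, had no overlapping peak in lens epithelium and lay at an end of a protein-coding gene. They were selected from 2 peak lists of newborn mouse lens: a fiber peak of chromosomes 1 to 19 was kept if it overlapped no epithelium peak by even 1 bp and if its summit fell within 500 bp of either end of a protein-coding gene in the GRCm38 annotation. The rule gave 1232 peaks, of 11576 fiber-only peaks and of 23132 fiber peaks on these chromosomes, and the whole fiber list held 23868 peaks. CTCF ChIP-seq was done on chromatin of lens epithelium and of lens fibers, microdissected from 200 pooled lenses of CD-1 mice at P0.5, and each cell type has 1 sample and 1 peak list, although the study's methods name biological replicates. Chromatin loops came from Hi-C of the same 2 tissues (30 lenses per replicate) and of wild-type v6.5 mouse embryonic stem (ES) cells grown without feeders (2000000 cells per replicate), each fixed in 2.0% formaldehyde, with 2 replicates merged before loops were called. With 1 peak list and 1 loop list per cell type, no comparison has a replicate check, and the intervals below are 95% Wilson intervals that cover counting error only. The files hold no expression values, so the labelled cell types were not checked against marker genes.

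CTCF is a zinc finger protein that binds a long, GC-rich motif and halts the cohesin ring as it extrudes DNA, which leaves pairs of CTCF sites at the bases of many chromatin loops. CTCF also binds at gene promoters, which in mammals are often rich in CpG. The lens is built of an anterior layer of dividing epithelial cells and of fiber cells that leave the cell cycle, elongate, fill with crystallins and lose their nuclei and other organelles.

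As examples, short stretches of 8 promoters with a fiber-only summit are printed below, from RefSeq (GRCm38.p6), 5′ to 3′ along the gene and ending before its annotated start. In the first 6, capitals mark the match to the 12-base core consensus of CTCF, which was exact at Fam133b, Psmc4 and Rplp0 and had 1 mismatch at Btg1, Snx18 and Wif1. The 8 were picked by hand and do not show how often the core occurs. Of 515 promoter windows with such a summit, 5.05% held an exact core and 25.2% one with at most 1 mismatch. At Eif3g the best match to the core had 4 mismatches, and capitals mark the ETS word CCGGAAG, which is bound by factors of the ETS family. At Pink1 the best match had 3 mismatches, and nothing is marked. Fam133b lies on chromosome 5, and its stretch is chr5:3543751-3543803 on the plus strand. The stretch of Psmc4, a proteasome ATPase, is chr7:28050276-28050342 on the minus strand, and that of Rplp0, a protein of the ribosomal stalk, is chr5:115559275-115559322 on the plus strand. The stretch of Btg1, a gene that restrains cell division, is chr10:96616835-96616880 on the plus strand. The stretch of Snx18, a sorting nexin, is chr13:113618642-113618728 on the minus strand, and that of Wif1, a secreted Wnt inhibitor, is chr10:121033928-121033971 on the plus strand. The stretch of Eif3g, a subunit of translation initiation factor 3, is chr9:20898613-20898735 on the minus strand, and that of Pink1, a kinase that marks damaged mitochondria for removal, is chr4:138326323-138326383 on the minus strand.
Fam133b: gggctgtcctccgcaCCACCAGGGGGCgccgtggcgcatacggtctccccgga
Psmc4: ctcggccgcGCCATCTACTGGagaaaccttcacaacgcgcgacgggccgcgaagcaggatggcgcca
Rplp0: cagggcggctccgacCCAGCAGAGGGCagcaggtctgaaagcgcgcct
Btg1: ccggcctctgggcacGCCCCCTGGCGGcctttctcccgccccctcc
Snx18: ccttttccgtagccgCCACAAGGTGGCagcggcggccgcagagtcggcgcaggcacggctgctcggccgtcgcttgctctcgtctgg
Wif1: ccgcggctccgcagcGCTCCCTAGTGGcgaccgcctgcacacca
Eif3g: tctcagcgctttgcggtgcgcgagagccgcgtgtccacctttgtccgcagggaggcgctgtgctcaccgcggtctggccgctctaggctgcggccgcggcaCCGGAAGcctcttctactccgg
Pink1: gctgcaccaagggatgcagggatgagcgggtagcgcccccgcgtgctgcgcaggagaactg

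Most of the fiber-only gene-end peaks lay at gene starts. The strand of a gene was taken from the RefSeq promoter table, which gave one for 16457 of the 20665 protein-coding genes. With these strands, 845 of the peaks lay at a gene start, 147 lay at a far end alone and 240 lay at genes for which no strand was given. Among the 992 peaks with a known strand, 85.2% were at starts. Of the 556 fiber peaks at gene ends that overlapped an epithelium peak, called shared peaks here, 286 were at starts, 163 at far ends and 107 at genes with no strand given.

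The summits gathered just before the start. The nearest start lay a median of 23 bp after the summit, and the quartiles of the 845 summits lay 142 bp before and 163 bp after it. Within 100 bp of the start on either side lay 315 of these summits, or 37.3% (34.1 to 40.6), and the 100 bp just before the start held 198 of them. Shared peaks were placed more tightly: 50% (44.2 to 55.8) of their 286 summits lay within 100 bp of the start, and 74.8% (69.5 to 79.5) lay before it, against 55.03% (51.7 to 58.4) of the fiber-only summits. At far ends, where 181 fiber-only summits were counted including those that also had a start in reach, 13.8% (9.53 to 19.6) lay within 100 bp of the end, beside 15.3% (10.7 to 21.5) of 170 shared summits. The plot of summit positions shows the single crest at starts and none at far ends.

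**Figure D1:**
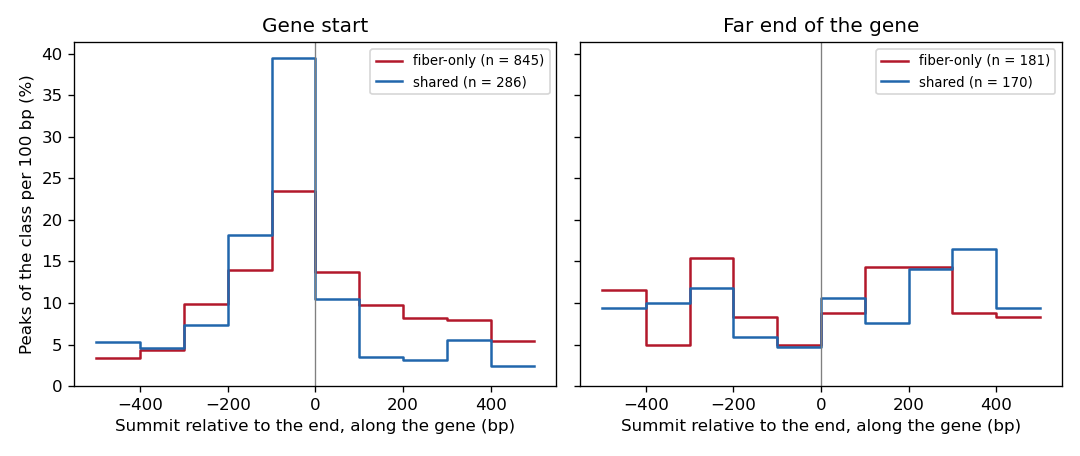
Position of the peak summit relative to the gene start (left) or the far end (right) in bp along the gene, as the percent of each class per 100 bp; red, fiber-only peaks, and blue, peaks shared with epithelium. At starts both classes crest in the 100 bp before the start, with 23.4% of the fiber-only summits there, and fiber-only summits spread further into the gene.

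The rule used the lack of an epithelium overlap, so the next values describe how the peaks were chosen and support nothing by themselves. Of the 1131 fiber peaks at gene starts, 74.7% (72.1 to 77.2) had no epithelium overlap. Of the 310 at far ends, 47.4% (41.9 to 53.0) had none, which was close to the 48.5% (47.8 to 49.1) of the 21344 fiber peaks away from gene ends. From the epithelium side the picture was reversed. The epithelium list had 15799 peaks on these chromosomes, 316 of them at gene starts, and 28 of those had no fiber overlap. Starts held 7.30% (6.84 to 7.79) of fiber-only peaks, 2.47% (2.21 to 2.77) of shared fiber peaks and 0.660% (0.457 to 0.952) of the 4242 epithelium-only peaks.

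Peak strength moved with this share, which still describes how the peaks were chosen and supports nothing by itself. When all fiber peaks were split into quartiles by −log10 q, the significance given by the peak caller, the fiber-only share at starts was 95.9% (93.2 to 97.6) in the weakest quartile, 89.2% (85.1 to 92.3) in the second, 75.8% (69.7 to 81.1) in the third and 38.5% (33.3 to 44.0) in the strongest. Away from gene ends it was 76.2%, 60.6%, 41.5% and 15.3% in the same order. Starts stood above the other places in each quartile, and the intervals at far ends (80.6%, 59.1%, 43.3% and 17.2%, on 66 to 90 peaks each) included the share elsewhere in each. The fiber list is also the longer one. With the fiber list reduced to its strongest 15799 peaks, the size of the epithelium list, 63.2% (59.6 to 66.6) of the peaks at starts were fiber-only, beside 37.2% (31.3 to 43.6) at far ends and 36.6% (35.8 to 37.4) elsewhere. The read depth of the ChIP libraries is unknown, and its part in these shares was not tested.

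**Figure D2:**
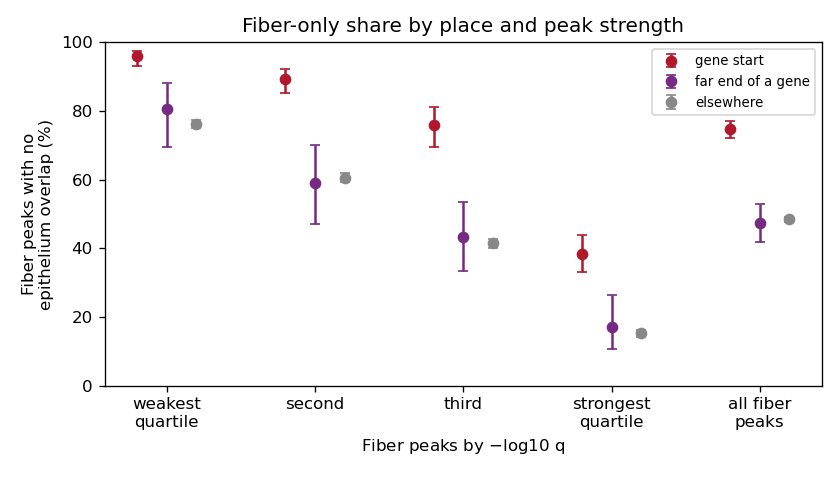
Percent of fiber CTCF peaks with no epithelium overlap, by quartile of −log10 q and over all fiber peaks, with 95% Wilson intervals; red, summits within 500 bp of a gene start, purple, of a far end, grey, elsewhere. The red points are highest in every quartile, from 95.9% to 38.5%, and the purple and grey points lie close together. These shares describe how the peaks were chosen.

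The fiber-only gene-end peaks were weak to moderate. Their fold enrichment over the caller's background had a median of 5.76 (quartiles 4.86 and 6.98, range 3.29 to 16.3), beside 5.68 for fiber-only peaks elsewhere, 8.50 for shared peaks at gene ends and 7.63 for shared peaks elsewhere. The median −log10 q was 7.17, 6.70, 17.1 and 12.96 in the same order, and the median width 258, 236, 320 and 296 bp. The nearest epithelium peak lay a median of 30.9 kb away (quartiles 13.4 and 69.9 kb), and 16 of the 1232 had one within 1 kb, so few of the peaks were near misses of the overlap rule by distance. Epithelium sites just under the caller's cutoff are not listed, so near misses by strength could not be counted. On the distance side of the rule the margin was at Snu13 and Mettl6, whose far ends lay 500 bp from summits of 6.97-fold and 4.72-fold enrichment, while summits just outside lay 501 bp from 4930564D02Rik (6.18-fold) and 504 bp from Nsmce4a (3.58-fold). All autosomes took part: each carried 33 to 113 of the peaks, which made up 8.60% to 13.8% of its fiber-only peaks.

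The strongest peaks were at genes of many kinds. The highest fold enrichment, 16.3-fold with −log10 q of 46.2, was at Erlin2, a gene for a protein of the endoplasmic reticulum that takes part in protein degradation, with the summit at position 27023644 of chromosome 8, 272 bp from an end of the gene. Dnajc11, a mitochondrial chaperone gene, followed with 14.7-fold enrichment, and Nol9, a kinase of ribosomal RNA processing, with 13.9-fold and a summit 12 bp into the gene. The peak between Chmp1a, a gene of the ESCRT membrane machinery, and Spata33 had 12.6-fold enrichment and lay before the first and inside the second. Fam133b had 12.5-fold enrichment, Snx18 12.4-fold and Ngdn 12.2-fold. Ago1, an Argonaute protein of RNA silencing, had 12.05-fold enrichment with the summit 16 bp before its start, and the peak at the start of Myl6, a light chain of non-muscle myosin, had 12.02-fold and touched the far end of Myl6b. Gulp1, an adaptor of engulfment of dead cells, was at 11.95-fold. Zzz3, the pair Chd1l and Fmo5, Cbl, Gtf2h2 and Tmem211 completed the 15 strongest with 11.7-fold to 11.6-fold. Cbl encodes a ubiquitin ligase of receptor tyrosine kinases and Gtf2h2 a subunit of the transcription factor TFIIH. The closest epithelium peak to these 15 was 5.06 kb away, at Tmem211, and the farthest 124 kb away, at Cbl.

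The widest peaks were a different set of genes. The peak at Spsb4 spanned 845 bp at only 5.74-fold enrichment, and Gys1, muscle glycogen synthase, had a peak of 783 bp with its summit 3 bp before the start. Wif1 followed with 759 bp, Ermp1 with 718 bp, Map3k4 with 667 bp, Tbc1d9b with 666 bp, the pair Cox15 and Cutc with 662 bp, Dnm1, the GTPase dynamin of endocytosis, with 619 bp, Dtwd2 with 606 bp and B3glct with 569 bp. Of these 10 peaks, 9 lay at a gene start, and the strand of Dtwd2 was not given.

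The 1232 peaks touched 1340 protein-coding genes, which were 6.48% of the 20665 on these chromosomes. A start with a member was found at 904 genes and a far end with one at 192. Most peaks (1103) touched 1 gene, 126 touched 2 genes and 3 touched more. At 66 of the 845 peaks at starts, or 7.81% (6.19 to 9.82), the summit was in reach of 2 starts on opposite strands, as at Chmp1a and Spata33, beside 11 of 286 shared peaks, or 3.85% (2.16 to 6.75). Genes with a member at the start had a median length of 20.6 kb (quartiles 8.53 and 52.1 kb), beside 17.3 kb (5.86 and 44.0 kb) for all genes with a strand and 16.7 kb (7.64 and 40.7 kb) for genes with a shared peak at the start.

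Separate fiber-only peaks at each end were found at 11 genes, and at 13 short genes of 374 to 552 bp, 12 of them histone genes, 1 peak was in reach of both ends. At Cuedc2 the peak at the start had 10.3-fold enrichment and that at the far end 6.52-fold. Faap100, a gene of the Fanconi anemia DNA repair complex, had 6.60-fold at the start and 5.74-fold at the far end, and Fmnl3, a formin that nucleates actin, had 6.39-fold and 7.05-fold. The pairs at Mindy1, Paqr8, Slc25a45, Mettl6, Zdhhc1, Lin7b and Ppp1r9b ranged from 3.97-fold to 7.49-fold.

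Genes known for the lens were counted beside the 6.48% of all genes, and the interval of each of the 3 lists below included that share. Of 25 genes for membrane and cytoskeletal proteins of fibers, including Bfsp1, Bfsp2, Mip, Lim2 and Gja3, 0 had a fiber-only peak at an end, which allows a share of up to 12%, and none had a shared peak there either. Among 16 crystallin genes 2 had one, or 12.5% (3.50 to 36.02), and both peaks were weak. At the far end of Cryga, in the γ-crystallin cluster of chromosome 1, the peak had 3.90-fold enrichment with its summit at 65100218, and at the start of Crygn it had 3.43-fold and −log10 q of 1.92. Both lie below the level of 4.30-fold that marks off the weakest 10% of the peaks by fold. Of 36 regulators of lens development 1, or 2.78% (0.492 to 14.2), had a fiber-only peak, Fgfr2, a receptor for the fibroblast growth factors that drive fiber differentiation, with 7.01-fold enrichment 454 bp before the start. Its nearest epithelium peak was 467 kb away. Fgfr1 and Pitx3 had a shared peak instead, and Pax6, Prox1, Maf, Sox1, Hsf4 and Foxe3 had neither.

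Genes of CTCF binding and looping and of the cell cycle had intervals above 6.48%, on small counts. Ctcf itself had a fiber-only peak of 7.13-fold enrichment 290 bp inside the gene, and Smc3, a cohesin subunit, had one of 6.50-fold 402 bp before its start. Zfp143, a zinc finger factor found at promoters and loop bases, had one of 3.52-fold. These were 3 of 13 genes of the CTCF and cohesin list, or 23.1% (8.18 to 50.3). Among 27 genes of the cell cycle and its exit 5 had one, or 18.5% (8.18 to 36.7). Cdkn2b and Cdkn2a, neighbouring genes for inhibitors of cyclin-dependent kinases, had peaks of 7.06-fold and 4.56-fold, Btg1 had 6.30-fold, and E2f5 had 5.00-fold. Among 29 genes of hypoxia and organelle loss there were 3, or 10.3% (3.58 to 26.4), an interval that included 6.48%. These were Pink1 with 8.59-fold enrichment, P4ha1, a collagen prolyl hydroxylase, with 6.77-fold, and Slc2a1, the glucose transporter GLUT1, with 5.21-fold.

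Against the 6.48% of all genes, housekeeping families lay around or above that share and 1 large family lay far below. Families were taken by gene symbol. A fiber-only peak lay at an end of 9 of 81 cytosolic ribosomal protein genes, or 11.1% (5.96 to 19.8), with Rps3a1 (11.5-fold), Rplp0 (9.20-fold), Rpl10a (8.69-fold) and Rpl26 (8.30-fold) the strongest. Of 38 genes named as NADH dehydrogenase subunits, the first complex of respiration, 7 had one, or 18.4% (9.22 to 33.4), among them Ndufv2 (6.60-fold) and Ndufa12 (6.36-fold), with Ndufa4l2 counted by its symbol though it is no standard subunit. Of 65 Rab genes, small GTPases of vesicle traffic, 12 had one, or 18.5% (10.9 to 29.6), led by Rab2b (10.8-fold), Rab1a (7.69-fold) and Rab29 (7.54-fold), and the count includes partner genes such as Rab3ip. Of 39 Hox genes, which set position along the body axis, 7 had one, or 17.9% (8.98 to 32.7), with Hoxb5 at 8.12-fold, a peak shared by Hoxa5 and Hoxa6 at 7.497-fold and Hoxb8 at 7.01-fold. The Rab, NADH dehydrogenase and Hox intervals lay above 6.48%, and the ribosomal interval included it. All count each gene as separate, also where genes share a peak, with no adjustment for the 22 lists and families counted.

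Other families had intervals that included or came close to the share of all genes. Mitochondrial ribosomal proteins had 7 of 78 genes, translation factors 6 of 68 (Eif3g at 9.42-fold was the strongest), proteasome genes by symbol 4 of 50 (Psmc4 at 7.86-fold, and 1 of the 4 is Psmc3ip, a recombination factor), splicing factors and hnRNPs 4 of 55, and heat shock and DnaJ genes 8 of 72. Zfp genes had 29 of 388, led by Zfp619 at 10.5-fold, solute carriers 22 of 362, led by Slc25a28 at 10.2-fold, and protocadherins 6 of 67. All these intervals included 6.48%. That of the aminoacyl-tRNA synthetases, with 5 of 33 genes or 15.2% (6.65 to 30.9), lay just above it. Of these 5, Hars and Hars2 shared 1 peak, while the interval counts each gene as separate. Among 1104 olfactory receptor genes, which are silent outside the nose for the most part, there was 0, which allows a share of up to 0.272%, while 2 had a shared peak.

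Histone genes had the highest share of the lists and families counted, though only by a widened pattern of symbols. By their current symbols, a pattern widened after its first count of 2 of 14 had been seen, 21 of 81 had a fiber-only peak at an end, or 25.9% (17.6 to 36.4), and 1 had a shared peak. The 21 genes shared 14 peaks, while the interval counts each gene as separate, and 18 of the genes lay on chromosome 13. The strongest was at H2aw with 8.86-fold enrichment, followed by H1f10 with 6.36-fold and the pair H2ac7 and H2bc7 with 5.64-fold. At 10 H2A genes of chromosome 13, among them H2ac4, H2ac10 and H2ac12, the summit lay inside the gene, 184 to 376 bp after the start, with 3.60-fold to 5.64-fold enrichment. Histone genes are short and lie close together, so 1 summit is often in reach of several ends, and the part of this in the count was not tested.

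The CTCF core was rarer in the promoters of fiber-only peaks than in those of shared peaks. The RefSeq table gives 300-base windows (250 before to 50 after each annotated start), and 467 of the 1232 summits fell inside 515 such windows. The windows were scanned on both strands for the CTCF core consensus. An exact core stood in 5.05% (3.47 to 7.29) of the fiber-only windows, in 22.0% (16.8 to 28.2) of the 200 windows with a shared summit and in 0.578% (0.482 to 0.692) of all 20085 windows. With at most 1 mismatch the shares were 25.2% (21.7 to 29.2), 67.0% (60.2 to 73.1) and 4.66% (4.37 to 4.96). With at most 2 mismatches they were 68.9% (64.8 to 72.8), 92% (87.4 to 95.02) and 31.9% (31.3 to 32.6). Fiber-only windows thus lay between all windows and shared windows at each number of mismatches.

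Windows of stronger fiber-only peaks held the core more often, and base composition differed between the classes of windows. Of the fiber-only windows whose peak was at or above the median fold, 33.7% (28.2 to 39.7) held a core with at most 1 mismatch, and of those below it 16.9% (12.9 to 22.0). The median GC content was 63.3% in fiber-only windows, 60.7% in shared windows and 57.0% in all, and the median observed to expected CpG ratio was 0.801, 0.744 and 0.586. Among windows over 65% GC the core with at most 1 mismatch stood in 25.7% (20.3 to 32.0) of 210 fiber-only windows, 73.1% (59.7 to 83.2) of 52 shared windows and 6.63% (5.96 to 7.36) of all 4904. The order was the same as over all windows.

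Where the core had at most 1 mismatch, it lay near the summit at most peaks. Where several best matches tied in a window, the first found was kept rather than the nearest. Ties can lengthen the distances below, and their part in them was not tested. Of the 467 peaks, 121 had a best match with at most 1 mismatch, and the centre of the match lay a median of 23.5 bp from the summit, with 74.4% (65.9 to 81.3) within 50 bp. At 202 peaks with 2 mismatches the median was 38.5 bp, and at 144 peaks with 3 or more it was 63.0 bp. The median fold enrichment fell along the same order, from 6.53 to 5.94 and 5.60. Shared peaks differed in that 126 of 190 had at most 1 mismatch, with a median distance of 17.0 bp, and in that their median fold was 9.70, 9.71 and 9.66 in the 3 classes.

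Short promoter words were counted in the same windows. The ETS word CCGGAAG, on either strand, stood in 23.3% (19.9 to 27.1) of fiber-only windows, 19% (14.2 to 25) of shared windows and 11.9% (11.4 to 12.3) of all windows. Among windows over 65% GC it stood in 21.9% (16.8 to 28.0), 15.4% (8.01 to 27.5) and 15.8% (14.8 to 16.9). The word TATAAA of TATA boxes stood in 5.24% (3.63 to 7.52) of fiber-only windows and 12.7% (12.3 to 13.2) of all, but among windows over 65% GC in 3.33% (1.62 to 6.72) and 2.35% (1.96 to 2.81). The GC-box word GGGGCGGGG stood in 18.4% (15.3 to 22.0) and 15.7% (15.2 to 16.2), and among windows over 65% GC the order turned, with 27.6% (22.0 to 34.0) and 36.9% (35.6 to 38.3). CCAAT stood in 37.7% and 38.1% of fiber-only and all windows. In shared windows TATAAA stood in 9%, GGGGCGGGG in 14% and CCAAT in 31.5%. For each word, over all GC contents, the intervals of fiber-only and shared windows overlapped. None of these words is part of the others, and a match describes the letters of the window, not binding.

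**Figure D3:**
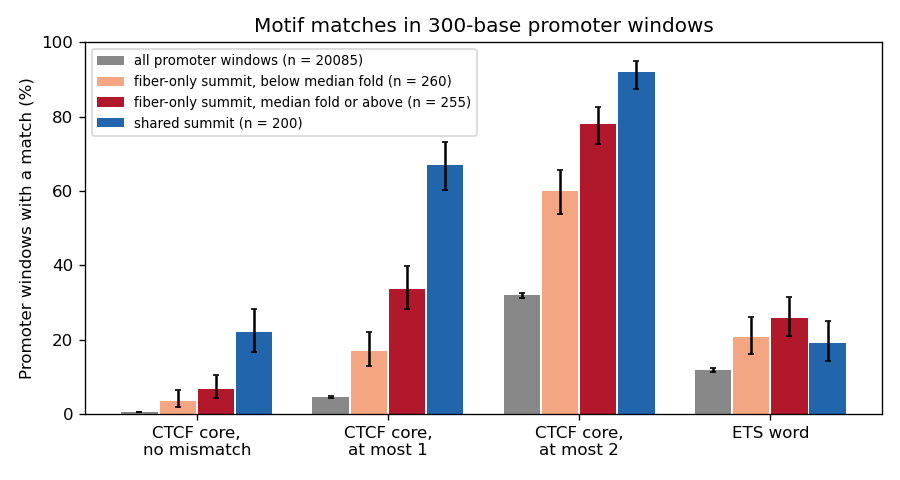
Percent of 300-base promoter windows with a match to the CTCF core consensus (no mismatch, at most 1, at most 2) or to the ETS word, with 95% Wilson intervals; grey, all windows, light and dark red, windows with a fiber-only summit below the median fold and at or above it, blue, windows with a shared summit. The core shares climb from grey through the 2 reds to blue, with 4.66%, 16.9%, 33.7% and 67.0% at no more than 1 mismatch.

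The fiber-only gene-end peaks had a lower share at loop anchors than CTCF peaks away from gene ends. An anchor of the fiber loop list was overlapped by 315 of them, or 25.6% (23.2 to 28.1), beside 33.2% (32.3 to 34.1) of fiber-only peaks elsewhere, 28.6% (24.998 to 32.5) of shared peaks at gene ends, 38.3% (37.4 to 39.2) of shared peaks elsewhere and 35.1% of all fiber peaks. At starts it was 23.8% (21.0 to 26.8), and at far ends 29.9% (23.1 to 37.8). The loop lists of the other cells gave the same order. Epithelium anchors held 26.2% (23.8 to 28.7) of the peaks, beside 35.6% of all fiber peaks, and ES cell anchors held 23.8% (21.5 to 26.2), beside 33% of all fiber peaks. The interval in the loop list of the fibers, where the peaks were called, overlapped that in the list of the epithelium, where they were not.

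The gap was widest among strong peaks. Among the strongest quartile of fiber peaks, 29.4% (23.0 to 36.9) of 163 fiber-only gene-end peaks were at fiber anchors, beside 51.8% (48.3 to 55.2) of 809 fiber-only peaks elsewhere, 29.8% (25.03 to 35.02) of 319 shared peaks at gene ends and 49.96% (48.5 to 51.4) of 4478 shared peaks elsewhere. In the weakest quartile it was 19.4% (16.0 to 23.5) of 427 and 22.3% (21.0 to 23.6) of 4060 fiber-only peaks. The share of fiber-only peaks elsewhere at anchors thus climbed by quartile from 22.3% through 35.7% and 42.5% to 51.8%, while at gene ends it was 19.4%, 27.8%, 29.9% and 29.4%. In the promoter windows, 24.8% (17.95 to 33.2) of 121 peaks with a core of at most 1 mismatch were at fiber anchors. The share was 26.7% (21.1 to 33.2) with 2 mismatches and 18.1% (12.6 to 25.1) with 3 or more. The 3 intervals overlapped, so a difference between them was neither shown nor excluded.

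**Figure D4:**
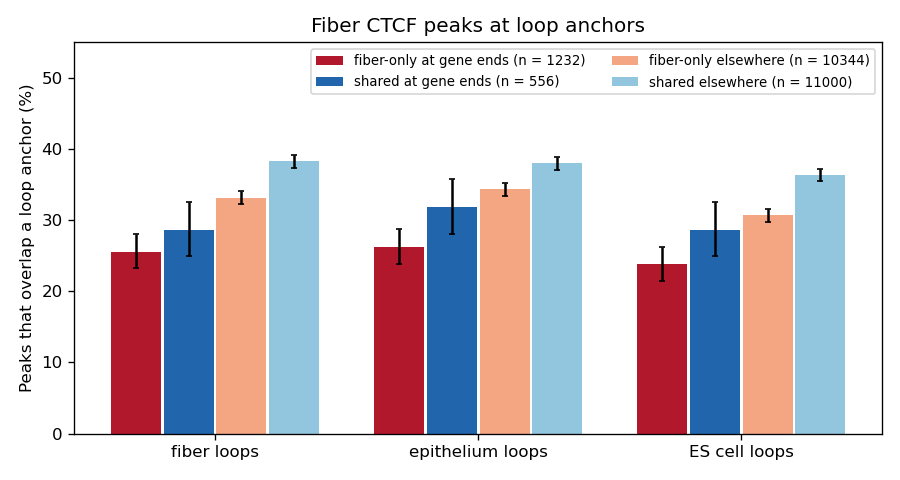
Percent of fiber CTCF peaks that overlap a loop anchor in the fiber, epithelium and ES cell loop lists, with 95% Wilson intervals; dark red, fiber-only at gene ends, dark blue, shared at gene ends, light red and light blue, the same classes elsewhere. Fiber-only gene-end peaks are lowest in all 3 lists (25.6%, 26.2% and 23.8%).

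Over the 3 loop lists together, 719 of the 1232 peaks, or 58.4% (55.6 to 61.1), touched no anchor, beside 49.98% (49.02 to 50.9) of fiber-only peaks elsewhere and 47.8% of all fiber peaks. Anchors of all 3 cell types held 128 of them, or 10.4% (8.81 to 12.2), beside 16.4% (15.7 to 17.1) and 17.5%. In fiber anchors alone there were 65, or 5.28% (4.16 to 6.67), beside 5.15% (4.74 to 5.60) and 5.35%. Epithelium anchors alone also held 65, and ES cell anchors alone 93, or 7.55%, beside 7.26% and 7.56%. Of the shared peaks at gene ends, 50.5% (46.4 to 54.7) touched no anchor and 12.6% (10.1 to 15.6) were in anchors of all 3 cell types. Within 10 kb of a border of a topologically associating domain of the fiber list lay 15.9% (13.97 to 18.1) of the fiber-only gene-end peaks, beside 16.7% (15.97 to 17.4) of fiber-only peaks elsewhere. For epithelium domains it was 12.01% (10.3 to 13.9) beside 11.5% (10.9 to 12.1), and for ES cell domains 23.4% (21.1 to 25.8) beside 18.9% (18.2 to 19.7), the 1 list of the 3 where the intervals did not overlap. For ES cell domains the shared peaks at gene ends stood higher, at 30.0% (26.4 to 34.0). A share above that of fiber-only peaks elsewhere was thus not particular to the fiber-only gene-end peaks.

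A fiber-only gene-end peak stood at an anchor of 380 of the 7502 fiber loops on these chromosomes, or 5.07%, of 408 of the 7840 epithelium loops and of 388 of the 8205 ES cell loops. The 380 fiber loops were shorter than the rest, with a median size of 200 kb (quartiles 100 and 350 kb) beside 275 kb (140 and 534 kb) for the 7122 others. Loops with a shared gene-end peak were also short (219 loops, 225 kb), and those with a fiber-only peak elsewhere were longer (3707 loops, 300 kb). The median ratio of observed contacts to the local (donut) expectation was 2.71, beside 2.83 for the others. At 251 of the 380 loops an anchor with such a peak held no other fiber peak, and at 95 the same anchor also held an epithelium peak. The opposite anchor held a fiber CTCF peak in 248, or 65.3% (60.3 to 69.9), beside 57.5% (55.9 to 59.1) for loops with a fiber-only peak elsewhere and 68.5% (62.1 to 74.3) for those with a shared gene-end peak. Of 28 peaks in fiber anchors that had a core with at most 1 mismatch and loops to 1 side, the core pointed into the loop in 17, or 60.7% (42.4 to 76.4).

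Many of these fiber loops were also listed in lens epithelium or in ES cells. CTCF peaks of ES cells were not compared here, so whether the peaks are present there is not known. With midpoints of both anchors within 10 kb, 225 of the 380, or 59.2% (54.2 to 64.04), were listed in lens epithelium, beside 58.3% (57.1 to 59.4) of the other fiber loops, and where both anchors had to overlap it was 180, or 47.4%. In ES cells 155 were listed, or 40.8% (36.0 to 45.8), beside 38.3% (37.2 to 39.5). All 3 lists held 120 of the loops, and another 120, or 31.6% (27.1 to 36.4), were in the fiber list alone, beside 34.1% (33.0 to 35.2) of the other fiber loops. For each of these shares the interval of the 380 loops overlapped that of the other fiber loops.

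The loop of highest contact ratio stood apart from all others. It joined Mpnd on chromosome 17 to an anchor 16160 kb away with 160 observed contacts, a ratio of 569.5, and was listed in all 3 cell types. The distant anchor overlapped Rn18s-rs5, a ribosomal RNA pseudogene, and the noncoding AY036118. The part of repeated ribosomal sequence in this ratio was not tested. The next ratio was 6.69, at Mapkapk2, a kinase of the stress response, over 175 kb. Then came Arl4a (6.02 over 370 kb), Btg1 (5.79 over 405 kb), Creg1 (5.78 over 375 kb), Polr3e, a subunit of RNA polymerase III (5.57 over 80 kb), Grk5 (5.33 over 200 kb), Fgfr2 (5.32 over 610 kb), Atox1, a copper chaperone (5.15 over 55 kb), and Adamts8 (5.03 over 140 kb). All 10 were listed in epithelium and in ES cells as well. All 10 also have anchors of 5 kb, the narrowest width, which 58 of the 380 loops have. The part of anchor width in this ranking was not tested. Their observed contacts other than at Mpnd numbered 19 to 48.

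**Figure D5:**
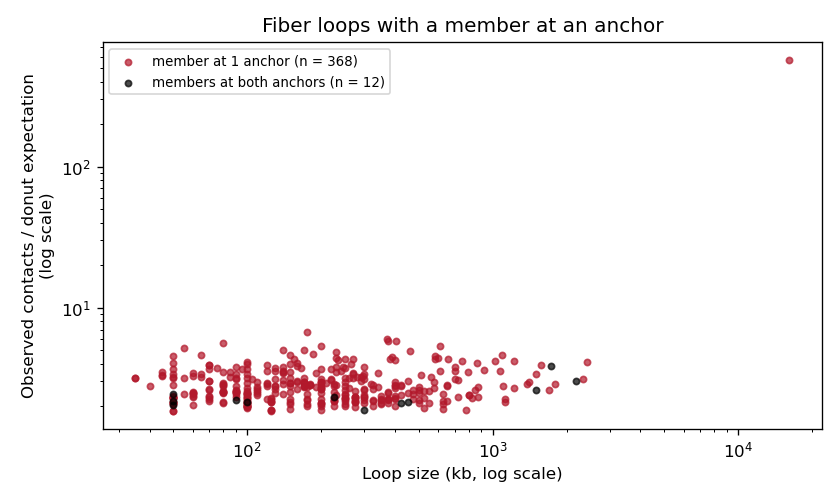
Fiber loops with a fiber-only gene-end peak at 1 anchor (red, 368 loops) or at both (black, 12 loops), by size in kb and by the ratio of observed contacts to the donut expectation, both on log scales. The loop at Mpnd lies alone at 16160 kb and 569.5, and the other loops have ratios up to 6.69.

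Several loops tied named genes to distant sites. Fgfr2 was an anchor of 3 fiber loops, of 610, 100 and 200 kb with ratios of 5.32, 2.50 and 2.93, which were all listed in epithelium. Btg1 had a second loop of 700 kb (3.58), listed in epithelium but not in ES cells. The loop at Cdkn2b spanned 200 kb (2.67), that at Snx18 295 kb (3.29) and that at Wif1 220 kb (3.66). The peak of Hoxa5 and Hoxa6 was in an anchor of a 340 kb loop that all 3 cell types listed and of a 1025 kb loop (4.17) found in the fiber list alone. The loops at Cbl (250 kb, 4.33) and Nol9 (60 kb, 2.50) were also in the fiber list alone. The longest loops after that at Mpnd joined Cited2, a co-regulator of hypoxia-inducible factor, over 2420 kb (4.14), Rrs1 over 2325 kb (3.12), Papola and Bcl11b over 2175 kb (3.02) and Styk1 over 1800 kb (2.88), and none of these 4 was listed in epithelium or ES cells within 10 kb. The last 3 and the 1025 kb loop have anchors of 25 kb, where a shift by 1 bin exceeds that tolerance. With a tolerance of 25 kb, 75.3% of the 380 fiber loops were listed in epithelium. Both anchors of the 2420 kb Cited2 loop also held epithelium CTCF peaks, and so did the Hoxa5 anchor of the 1025 kb loop. At these anchors, and at those of the Fgfr2, Btg1 and Cbl loops, the fiber-only gene-end peak was not the only fiber peak.

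At 12 fiber loops such a peak stood at both anchors. Of these, 1 was listed in epithelium within the same 10 kb tolerance, the 225 kb loop between Zmynd19 and Nrarp, a Notch-regulated gene (2.33), and 5 were listed in ES cells. Over all 380 fiber loops with such a peak the shares were 59.2% in epithelium and 40.8% in ES cells. Most of the 12 loops have anchors of 25 kb, where a shift by 1 bin exceeds the tolerance. The ratio was highest, 3.86, between the histone genes H2ac12 and H2bc12 and the histone gene H2ac4, 1725 kb apart on chromosome 13, and a second loop joined the same anchor to H2ac10 over 1500 kb (2.62). Histone genes are near copies of each other, and how uniquely reads were placed there was not tested. Ctcf was joined to Carmil2 over 50 kb (2.04), Sp2 to Scrn2 over 50 kb (2.45), Socs3, a feedback inhibitor of cytokine signalling, to Dnah17 over 50 kb (2.19), and Mrpl39 to Gabpa, an ETS factor, over 100 kb (2.14). The other loops joined Papola to Bcl11b, Kif13a to Nhlrc1 (90 kb), Ahcyl1 to Gpr61 (450 kb), Bdh1 to Meltf (425 kb) and Hoxc5 to Zfp385a (300 kb), with ratios of 1.87 to 3.02.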

How the data were processed

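CTCF peaks were used as deposited: the authors mapped reads with BWA to mm10 and called peaks with MACS2, whose lists give a score, a fold enrichment ratio and −log10 p and q values. The labels give 1 ChIP sample per cell type from 6 µg of chromatin, while the study's methods give another amount and biological replicates, so whether a peak list is 1 ChIP or pooled replicates is not known here. Hi-C replicates were merged by the authors in Juicer, and the deposited loop lists (juicer_tools 2.13.06 per the file headers) give observed contact counts, expected contacts and FDR q-values. Tool names come from the submitters' processing notes and the study's methods. The ChIP reads behind each peak are unknown.

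Peaks, loops and domains of chromosomes 1 to 19 were compared in Python 3.11.15 with numpy 2.4.6, pandas 2.3.3 and scipy 1.17.1. Overlap meant at least 1 bp, and a summit was the start column plus the summit offset. Gene ends were those of RefSeq protein-coding genes of GRCm38.p6. No test was made, since each cell type had 1 list. Named genes were those with the highest fold, the widest peaks, peaks at both ends, loops of the highest ratio, greatest length or 2 such anchors, and members of the gene lists. The members, lists and sequences shown were chosen with earlier results of these data known. Functions were tested on simulated data. Distance, overlap, strength and anchor settings were varied. An item of the fiber gene list is not reported here.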

Additional observations from a re-analysis of the deposited data

How the results depend on the processing

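Of 76 values under other settings, 48 stayed within the limits set around the reported value and 28 did not. The limits were the interval for shares and 1.5 times the value for counts. For the median fold they were the quartiles of the members, 4.86 and 6.98, which are wider than an interval of the median. Pairing the lists by summits within 100 bp, by reciprocal overlap or with a 1 kb margin, requiring −log10 q over 3 and, as settings chosen after seeing the data, counting summits from 1 and leaving out genes under 1 kb moved none. With gene ends within 250 bp the share of fiber-only peaks at gene ends was 7.33% and that of members at starts 87.8%, and within 1000 bp 15% and 80.2%. With the stronger 50% of each list there were 589 members, 9.71% of fiber-only peaks, with 28.7% at fiber anchors, 79.9% at starts and a median fold of 7.86. With the fiber list at the size of the epithelium list there were 689 members, 11.4% of fiber-only peaks, with 29.2% at fiber anchors. Shares at fiber, epithelium and ES cell anchors were 33.3%, 34.7% and 33.0% with anchors widened by 5 kb, 16.2%, 16.2% and 18.2% with anchors of 5 and 10 kb only (224 fiber loops), and 21.4%, 21.8% and 21.1% with every FDR under 0.01. Shares of loops listed in epithelium and ES cells were 75.3% and 52.6% with a tolerance of 25 kb and 47.4% and 31.3% where both anchors had to overlap. No paired analysis was possible because no result comes from a test. Without replicate peak lists the spread between animals is unknown, and anchors of up to 25 kb do not place a loop at a single peak.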
